A study of Bos taurus with 6 samples.

Results

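CCN3, MAL2 and TNFRSF11B lie close together on bovine chromosome 14, and with EXT1, SAMD12, COLEC10, ENPP2, TAF2 and DEPTOR they make up a set of 9 genes, 9 of the 27607 in the deposited tables, taken by their gene symbols. The set was chosen by the rise of several of its genes in cells with forced CREB5, so the difference between the groups is given here for these genes as a description, without a test. Bulk messenger RNA was sequenced from chondrocytes of the deep zone of bovine articular cartilage, the layer next to bone. All cells carried a lentivirus from which doxycycline induces bovine CREB5, a CREB/ATF-type transcription factor, went through 11 days of selection in 500 µg/ml G418 and were then kept for 3 days on low attachment plates with 20 ng/ml TGFb2 and 100 ng/ml TGFa. The Dox- group (3 libraries) had no doxycycline and the Dox+ group (3 libraries) had it at 1 µg/ml by the labels' treatment protocol, while the series' design text writes milligrams. Cells of 3 separately collected knees were used, and effects of CREB5 and of doxycycline itself cannot be told apart in these groups.

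In human the 9 genes stand in a single row, from EXT1 to DEPTOR. In cattle the RefSeq gene table of assembly ARS-UCD2.0 places them in 2 separate rows on chromosome 14. The first row runs CCN3, MAL2, COLEC10, TNFRSF11B, SAMD12 and EXT1 without any other protein-coding gene between them. The second row runs ENPP2, TAF2 and DEPTOR, with DSCC1 between the last pair, and 133 protein-coding genes separate EXT1 from ENPP2. In cattle, 6 of the 9 genes are thus immediate neighbours. The deposited files were made on another assembly, so the table was used only for the order of the genes.

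The genes of the set are unlike in what they do. CCN3 is a secreted matricellular protein of the CCN family, known from cartilage. MAL2 is a membrane protein with a role in the sorting of vesicles, described in human hepatocytes and epithelia. TNFRSF11B encodes osteoprotegerin, a soluble decoy receptor that binds RANK ligand and so limits the formation of osteoclasts, and COLEC10 encodes a collectin, a sugar-binding protein that can trigger complement. EXT1 builds heparan sulfate chains together with EXT2, and its loss in human causes bony outgrowths capped by cartilage. ENPP2 encodes autotaxin, the secreted enzyme that makes lysophosphatidic acid, TAF2 is a subunit of the general transcription factor TFIID, and DEPTOR is an inhibitor of the kinase mTOR.

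Values are normalized counts, which are reads of a library divided by its size factor, with mean ± SD over 3 libraries a group, and values of single libraries follow the order of their numbers, 1 to 3. They correspond to between 20063379 reads (Dox+ 3) and 122366790 reads (Dox+ 2) a library. A floor of 3 reads was worth 1.32 to 6.98 normalized counts. Differences between the groups are on the scale of log2(normalized count + 1), with a standard error (SE) from limma. The induced gene CREB5 (ENSBTAG00000018909) had 510, 308 and 330 normalized counts without doxycycline and 20935, 12413 and 21964 with it, on the side of each library's label. The 9 chondrocyte markers summed to 156655 to 310323 without doxycycline and 104190 to 121972 with it, with 1 of the 9 past the limma test and higher and 2 past it and lower. Endothelial markers summed to at most 294 normalized counts in any library and leukocyte and macrophage markers to at most 714, with 0 called in limma. Of other cell types, osteoblast and osteocyte markers (DMP1 at 0) summed to 664 to 1886 without doxycycline and 301 to 1245 with it, adipocyte markers to 147 to 315 and 303 to 460, smooth muscle and pericyte markers to 2220 to 7623 and 5467 to 16447 (of 2 tested, 1 lower and 0 higher in limma, against the direction of the sum), and erythroid markers (ALAS2 at 0) to 61116 to 107970 and 21380 to 46180. Their part in the results below was not tested. In bulk RNA, fewer cells of a type and less RNA per cell cannot be told apart.

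**Figure D1:**
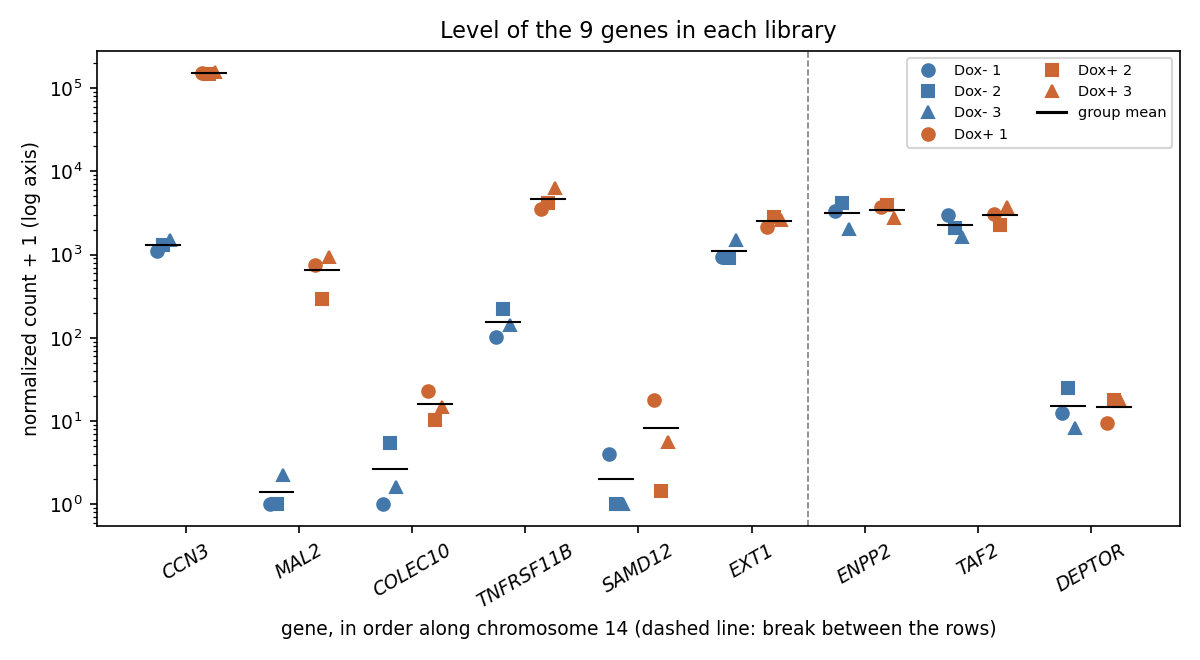
Normalized count + 1 (log axis) of each of the 9 genes in each library, in their order along chromosome 14; symbols give the library number, colours the group, black lines the group means, and the dashed line the break between the rows. CCN3, MAL2, COLEC10, TNFRSF11B and EXT1 have every Dox+ library above every Dox- library, and the groups of SAMD12, ENPP2, TAF2 and DEPTOR overlap.

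CCN3 (ENSBTAG00000002080), at one end of the first row of the 6 genes, had 1096, 1321 and 1498 normalized counts without doxycycline and 153943, 148209 and 154870 with it. The groups lay far apart, and the Dox+ libraries were close to each other, with the highest 1.04 times the lowest. The means were 1305 ± 201 and 152340 ± 3608 (n = 3), a ratio of 117, and the log2 difference was 6.88 (SE 0.18). CCN3 took 0.00215% to 0.00280% of all normalized counts without doxycycline and 0.274% to 0.332% with it. Ordered by normalized count among all genes, with no correction for length, it moved from places 4321 to 5289 without doxycycline to places 24 to 33 with it.

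MAL2 (ENSBTAG00000011779), the next gene, was almost without reads in Dox- cells. It had 0, 0 and 2 reads without doxycycline and 445, 665 and 402 reads with it. In normalized counts the Dox- libraries held 0, 0 and 1.22 and the Dox+ libraries 753, 293 and 935, a mean of 660 ± 331 (n = 3). All of the Dox+ libraries were far above the floor of 3 reads and none of the Dox- libraries reached it. The ratio of pooled reads, corrected for depth, was 907, with a 95% exact counting interval of 251 to 7494, which covers counting error only. The width of that interval comes from the 2 reads on the Dox- side. The log2 difference was 8.83 (SE 0.62), and it depends on the pseudocount, since it was 6.79 with 5 added and 9.61 with 0.5 added.

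TNFRSF11B (ENSBTAG00000007423) was present in both groups and higher in Dox+ cells. It had 102, 223 and 143 normalized counts without doxycycline and 3491, 4130 and 6337 with it. The lowest Dox+ library was above the highest Dox- library, and the spread within the Dox+ group, 1.82-fold, was wider than that of CCN3. The means were 156 ± 61.5 and 4653 ± 1493 (n = 3), a ratio of 29.8, and the log2 difference was 4.91 (SE 0.33).

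EXT1 (ENSBTAG00000006209), at the other end of the row, differed by less. It had 938, 907 and 1498 normalized counts without doxycycline and 2146, 2824 and 2618 with it. The groups did not overlap, with Dox- 3 nearest to the Dox+ libraries. The means were 1114 ± 333 and 2529 ± 348 (n = 3), a ratio of 2.27, with a log2 difference of 1.21 (SE 0.24).

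COLEC10 and SAMD12, the other genes of the row, had a mean under 10 normalized counts over the 6 libraries and stayed out of the fit. COLEC10 (ENSBTAG00000054331) had 0, 3 and 1 reads without doxycycline and 13, 21 and 6 reads with it. That is 0, 4.44 and 0.612 normalized counts against 22.0, 9.27 and 13.95, so the groups did not overlap. The ratio of pooled reads corrected for depth was 12.0, with a 95% exact counting interval of 4.34 to 46.2. That interval covers counting error only, not the spread between libraries, and is not a test. COLEC10 overlaps TNFRSF11B in the RefSeq table, and no source used here gives the strand setting of the counting, so reads of COLEC10 may belong to TNFRSF11B. The normalized counts of COLEC10 were 0.630%, 0.224% and 0.220% of those of TNFRSF11B with doxycycline, and 0%, 1.99% and 0.427% without it.

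SAMD12 (ENSBTAG00000043996), which encodes a protein with a sterile alpha motif, had 5, 0 and 0 reads without doxycycline and 10, 1 and 2 reads with it. The groups overlapped, since Dox+ 2 lay below Dox- 1. The ratio of pooled reads corrected for depth was 3.12, with a 95% exact counting interval of 1.04 to 11.2. Here too the interval covers counting error only and is not a test, and 10 of the 13 Dox+ reads came from Dox+ 1.

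In the second row, the Dox- and Dox+ groups overlapped for each gene. ENPP2 (ENSBTAG00000013165) had 3311, 4141 and 2021 normalized counts without doxycycline and 3709, 3927 and 2730 with it, with a log2 difference of 0.17 (SE 0.28). Dox- 2 held the highest level of ENPP2 and Dox- 3 the lowest. TAF2 (ENSBTAG00000015333) had 3028, 2109 and 1641 without doxycycline and 3063, 2274 and 3707 with it, with a log2 difference of 0.43 (SE 0.27). Each Dox+ library of TAF2 was above its same-numbered Dox- library, but Dox+ 2 was below Dox- 1. DEPTOR (ENSBTAG00000015341) was near the limit of detection, with 47 reads over the Dox- and 50 over the Dox+ libraries, means of 14.2 ± 8.46 and 13.8 ± 4.66 normalized counts (n = 3) and a log2 difference of 0.05 (SE 0.66).

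Of the 9 genes, 7 reached the mean of 10 needed for the fit. Since the set was proposed from this contrast, no test is given for them and nothing is read from their counts. In 4 of the 7 (CCN3, MAL2, TNFRSF11B and EXT1) every Dox+ library was above every Dox- library, as in 8.88% of all tested genes. Ordered by log2 difference among the 13180 genes, MAL2 was at place 9, CCN3 at 28, TNFRSF11B at 103 and EXT1 at 704, while TAF2, ENPP2 and DEPTOR were at 2073, 4114 and 5709. In the authors' deposited table the log2 fold changes were 6.89 for CCN3, 10.35 for MAL2, 4.90 for TNFRSF11B and 1.13 for EXT1, but 0.23 for COLEC10 and 0.10 for SAMD12. The last pair is smaller than the ratios of their reads, and no source used here says whether the authors shrank fold changes.

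The libraries share numbers 1 to 3 across the groups. Same-numbered libraries deviated together from their group means, least so for number 3, so differences can also be read within a number. CCN3 had a log2 difference of 7.13, 6.81 and 6.69 within numbers 1, 2 and 3. MAL2 had 9.56, 8.20 and 8.72, and TNFRSF11B 5.08, 4.20 and 5.46. For MAL2 and TNFRSF11B the smallest difference was within number 2, while for CCN3 it was within number 3. Dox+ 2 was the Dox+ library with the least CREB5 and the least MAL2 (293). TNFRSF11B was lowest among the Dox+ libraries in Dox+ 1 (3491) and highest among the Dox- libraries in Dox- 2 (223). A relation to the level of CREB5 was not tested. EXT1 had 1.19, 1.64 and 0.81 and so was largest within number 2. CREB5 itself had 5.36, 5.33 and 6.05. TAF2 had 0.02, 0.11 and 1.17, so that most of its mean difference came from number 3, and DEPTOR had -0.42, -0.47 and 1.05.

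**Figure D2:**
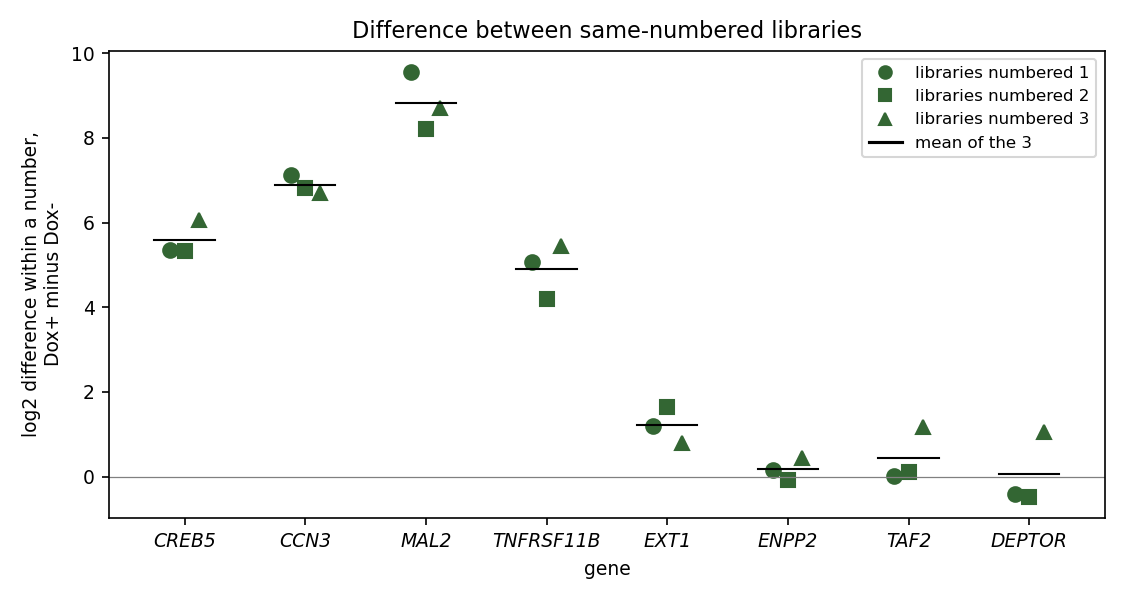
Log2 difference, Dox+ minus Dox-, between the libraries of each number for CREB5 and for the 7 genes whose mean reached 10 normalized counts; symbols give the number and black lines the mean of the 3. CCN3 spans 6.69 to 7.13, TNFRSF11B 4.20 to 5.46, and ENPP2 and DEPTOR lie on both sides of 0.

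The genes on either side of the rows are not part of the set, and they were tested. The set and the naming rule were chosen with earlier results of these data known. Before CCN3, the nearest gene was FABP12, followed by FABP4, FABP9, PMP2 and FABP5, a family of fatty acid binding proteins. No read was counted for FABP12, FABP9 and PMP2 in any library, and FABP4 had 25.7 ± 17.8 normalized counts without doxycycline and 14.3 ± 9.92 with it (n = 3, limma adjusted p = 0.84). FABP5, a fatty acid carrier of many cell types, rose from 185, 198 and 130 without doxycycline to 565, 561 and 351 with it, a ratio of means of 2.88 (log2 difference 1.51, SE 0.30, limma adjusted p = 0.033). The FABP5 groups did not overlap. The call was lost on leaving out Dox- 2 (limma adjusted p = 0.070), Dox- 3 (0.098), Dox+ 1 (0.15), Dox+ 2 (0.11) or Dox+ 3 (0.065), within a range of 9.7e-05 to 0.15 over 14 alternatives. The log2 difference of FABP5 stayed between 1.33 and 1.74 with any 1 library left out.

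ZNF704, a zinc finger gene further out on the same side, rose from 17.8, 48.8 and 15.3 without doxycycline to 130, 128 and 156 with it. The ratio of means was 5.06 (log2 difference 2.48, SE 0.49, limma adjusted p = 0.032). The log2 difference of ZNF704 stayed between 2.18 and 2.99 with any 1 library left out, while the call was lost on leaving out Dox- 1 (limma adjusted p = 0.061), Dox- 3 (0.10), Dox+ 1 (0.11), Dox+ 2 (0.078) or Dox+ 3 (0.19). It was 0.054 with no filter on low values and 0.057 in edgeR, within a range of 0.00032 to 0.19 over 14 alternatives. Of the 7 genes tested among the 10 before CCN3, limma called these 2 higher and 0 lower (0 lower also at an unadjusted p under 0.05, in edgeR and in DESeq2). Over all tested genes limma called 2.52% higher and 0.357% lower. PAG1, which encodes a membrane adaptor, stands between them and had 25.2 ± 17.4 and 28.1 ± 13.2 normalized counts (n = 3, limma adjusted p = 0.94).

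On the other side of the row, beyond EXT1, 5 of the nearest 10 genes were tested. MED30, a subunit of the Mediator complex and the gene next to EXT1, had 354 ± 24.0 normalized counts without doxycycline and 458 ± 84.6 with it (n = 3, log2 difference 0.36, SE 0.24, limma adjusted p = 0.75). RAD21, a subunit of cohesin, had 7734 ± 2269 and 9031 ± 1293 (limma adjusted p = 0.85). SLC30A8 and AARD, which lie between MED30 and RAD21, had a read in 1 and in 2 of the 6 libraries and were not tested. Of the 5 genes tested among the 10 beyond EXT1, limma called 0, as did edgeR and DESeq2 (0 at an unadjusted p under 0.05), and their log2 differences ran from -0.45 (UTP23) to 0.36 (MED30). TRPS1, a transcriptional repressor of cartilage and bone development, had 3464 ± 698 and 2892 ± 663 (n = 3, limma adjusted p = 0.83).

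**Figure D3:**
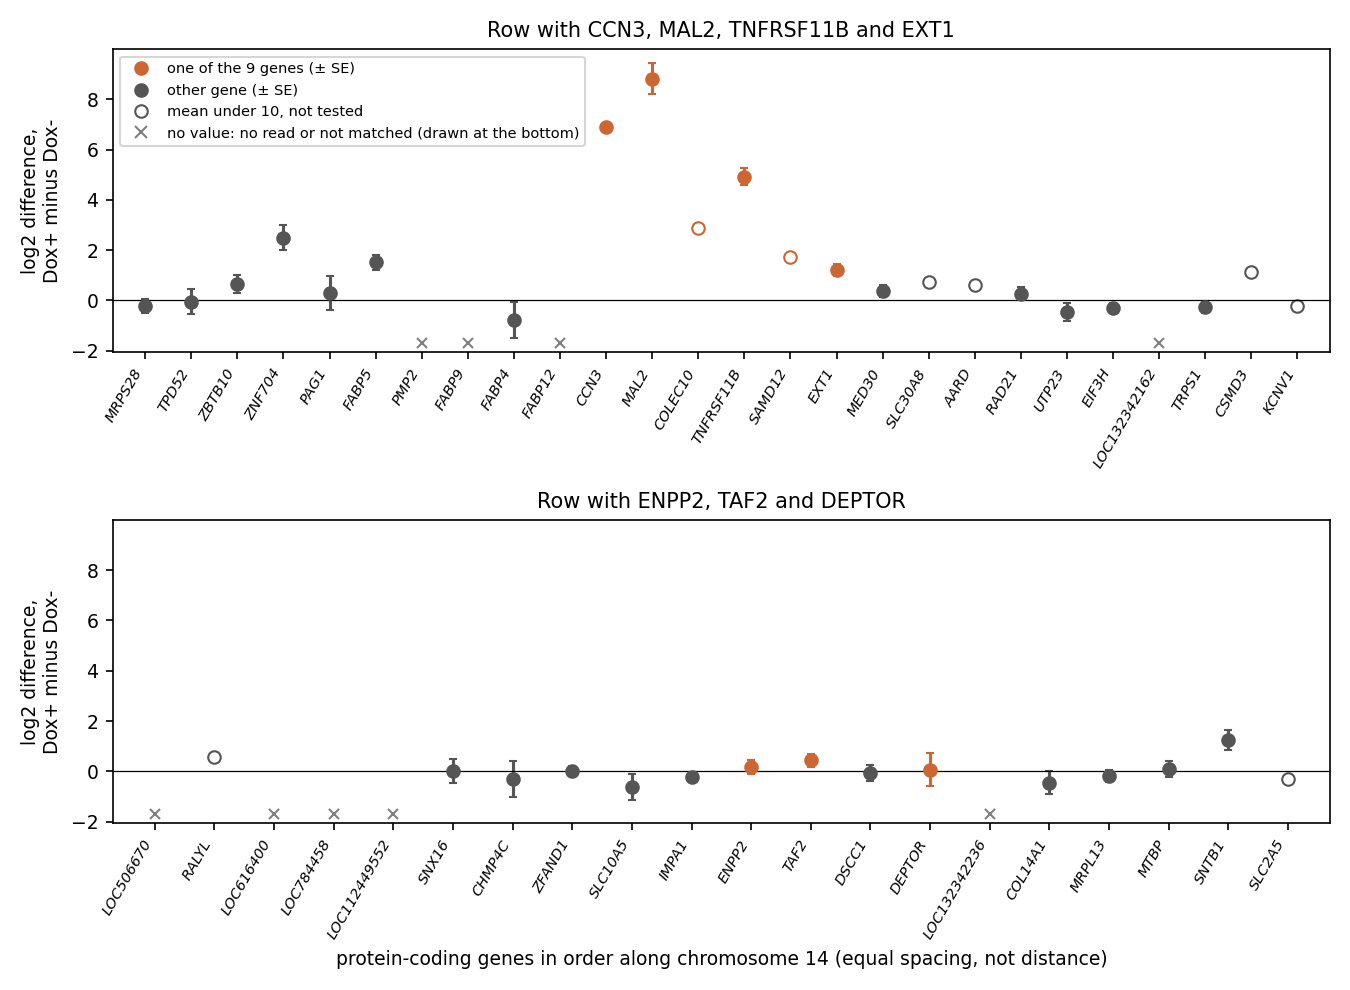
Log2 difference, Dox+ minus Dox- (± SE from limma), of protein-coding genes in their order along chromosome 14 around each row; filled orange points are genes of the set, grey points other genes, open points genes with a mean under 10, and crosses at the bottom, which carry no value, genes with no read or with no match in the deposited table. The differences of the tested genes in the first row are 6.88 (CCN3), 8.83 (MAL2), 4.91 (TNFRSF11B) and 1.21 (EXT1), and those of MED30, RAD21, UTP23, EIF3H and TRPS1 beyond it lie between -0.45 and 0.36.

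Around the second row, DSCC1, a sister chromatid cohesion factor between TAF2 and DEPTOR, had 589 ± 138 and 575 ± 195 normalized counts (n = 3, limma adjusted p = 0.97). COL14A1, which encodes a fibril-associated collagen, follows beyond DEPTOR and had 6904 ± 4791 and 4424 ± 1438 (n = 3, limma adjusted p = 0.86). SNTB1, a syntrophin of the dystrophin complex, had 688, 802 and 259 without doxycycline and 1362, 1339 and 1065 with it. The SNTB1 groups did not overlap, yet it did not pass without the block (log2 difference 1.25, SE 0.40, limma adjusted p = 0.21) and passed with the replicate number as a block (adjusted p = 0.018, range 0.018 to 0.47 over 14 alternatives). Before ENPP2, limma called 0 of 5 tested genes, as did edgeR and DESeq2 (0 at an unadjusted p under 0.05), with IMPA1, an enzyme of inositol metabolism, at 3631 ± 791 and 3053 ± 381 (n = 3, limma adjusted p = 0.84).

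Over all of chromosome 14 without the set, 291 of the 429 protein-coding genes in the RefSeq table were tested, and limma called 15 of them higher (5.15%, against 2.52% of all tested genes) and 0 lower (against 0.357%). The blocked fit called 23 of the 291 higher and 0 lower, against 4.86% higher and 1.65% lower of all tested genes. At an unadjusted limma p under 0.05, 38 were higher and 3 lower, edgeR called 14 higher and 0 lower, and DESeq2 20 higher and 0 lower. The median log2 difference of these 291 genes was 0.04, and that of all 13180 tested genes was 0.00. Between the rows, limma called 6 of 96 tested genes higher without the replicate block and 11 with it. The 6 were OSR2, a transcription factor of the forming joint, CTHRC1, a secreted collagen triple helix protein, RSPO2, an amplifier of Wnt signals, RIMS2, BAALC and ERICH5. CTHRC1 rose from 8885 ± 1486 to 50219 ± 5138 (n = 3, limma adjusted p = 0.00022), and BAALC from 11.3 ± 1.32 to 199 ± 30.7 (n = 3, limma adjusted p = 0.00067). Of the 6, RIMS2 lost its call in 5 of 13 alternatives and the others in 0 of 14. This RIMS2 is ENSBTAG00000054448, with 8.71 ± 5.20 without doxycycline and 75.1 ± 7.69 with it (n = 3). The same symbol is carried by ENSBTAG00000003827, which had 31.2 ± 12.9 and 756 ± 41.1 (n = 3).

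Partners of the genes in their pathways were taken from lists, and up to 3 of each are named by smallest p, with some exceptions. TNFSF11 and TNFRSF11A are named as ligand and receptor of their axis, whatever their p. COLEC11 and MASP2 are named as too low to test. In the TFIID and mTOR lists the ends of the range are named. In the lysophosphatidic acid axis of ENPP2, 1 of 9 tested genes rose and 0 fell in limma, against 2.52% and 0.357% of all tested genes. At an unadjusted limma p under 0.05, 2 were higher and 1 was lower, and edgeR and DESeq2 each called 1 higher and 0 lower. The median log2 difference of the list was 0.26 beside 0.00 over all tested genes. PLPP3, a membrane phosphatase that breaks down lysophosphatidic acid outside the cell, rose from 579, 478 and 628 normalized counts without doxycycline to 3471, 5747 and 4472 with it. The ratio of means was 8.12 (log2 difference 3.00, SE 0.23, limma adjusted p = 0.00021), and all Dox+ libraries were above all Dox- libraries. The receptor gene LPAR1 had 1136 ± 333 and 1735 ± 210 (n = 3, limma adjusted p = 0.35), and ENPP1, a paralog of ENPP2 that makes pyrophosphate, had 20776 ± 485 and 14990 ± 1781 (n = 3, limma adjusted p = 0.31).

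Relatives of MAL2 in the family of MAL proteins had the values that follow. MAL had 89.5, 148 and 250 normalized counts without doxycycline and 42.3, 42.8 and 67.4 with it, and MALL had 1206, 4949 and 1609 without doxycycline and 372, 2312 and 581 with it. Each was lower in Dox+ within every number. Neither passed in limma without the block, with a log2 difference of -1.57 (SE 0.45, limma adjusted p = 0.15) for MAL and -1.42 (SE 0.70, limma adjusted p = 0.57) for MALL. With the replicate number as a block the limma adjusted p was 0.018 for MAL (range 0.017 to 0.43 over 14 alternatives, the lowest in DESeq2, where MAL also passed) and 0.0015 for MALL (range 0.0015 to 0.999). MYADM, a more distant relative, had 6555 ± 2016 and 6309 ± 2071 (n = 3, limma adjusted p = 0.97), so of 3 tested genes limma called 0 (1 lower at an unadjusted p under 0.05, 0 in edgeR, and MAL alone lower in DESeq2).

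Among the collectins and their proteases, COLEC12, a scavenger receptor with a collectin domain, rose from 344, 609 and 359 normalized counts without doxycycline to 4689, 14657 and 9211 with it. The ratio of means was 21.8 (log2 difference 4.34, SE 0.40, limma adjusted p = 0.00056). The groups did not overlap, and the Dox+ libraries differed by up to 3.13-fold. MASP1, a protease of the lectin pathway, had 1242 ± 700 and 861 ± 361 (n = 3, limma adjusted p = 0.87), and COLEC11 and MASP2 were too low to test. The median log2 difference of the 2 tested genes was 1.96.

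The RANK ligand axis of TNFRSF11B holds its ligand and the receptor for which it is a decoy. TNFSF11, which encodes RANK ligand, had 2 reads in Dox- 1 and 0 in each of the other 5 libraries. TNFRSF11A, the receptor RANK, had 9.95 ± 2.93 and 11.2 ± 4.07 normalized counts (n = 3, limma adjusted p = 0.97). Of the 4 tested genes of the list limma called 0, as did edgeR and DESeq2 (0 at an unadjusted p under 0.05), and their median log2 difference was 0.20. CSF1, a growth factor of macrophages and osteoclast precursors, had 979 ± 189 and 1179 ± 298 (n = 3, limma adjusted p = 0.86).

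Of the heparan sulfate polymerases, EXT2, the partner of EXT1, had 7529 ± 1516 and 9068 ± 2287 normalized counts (n = 3, log2 difference 0.26, SE 0.23, limma adjusted p = 0.84). EXTL1, an exostosin-like glycosyltransferase, had 1650 ± 846 and 854 ± 604 and was lower in Dox+ within each number (log2 difference -1.04, SE 0.49). It did not pass without the block (limma adjusted p = 0.54) and passed with it (adjusted p = 0.017, range 0.017 to 0.999 over 14 alternatives). Limma, edgeR and DESeq2 called 0 of the 4 genes of this list (0 at an unadjusted p under 0.05), whose median log2 difference was 0.09.

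In the CCN family, to which CCN3 belongs, 5 relatives were tested. CCN2, which encodes connective tissue growth factor, had 18510 ± 7161 normalized counts without doxycycline and 11180 ± 4654 with it (n = 3, log2 difference -0.73, SE 0.39, limma adjusted p = 0.63), and it passed with the replicate number as a block and was lower (adjusted p = 0.035, range 0.035 to 0.999 over 14 alternatives). CCN5 had 301 ± 67.6 and 189 ± 28.7 (n = 3, limma adjusted p = 0.45). CCN1 had 47371 ± 5120 and 33771 ± 16204 (n = 3, limma adjusted p = 0.70), and the log2 differences of the 5 relatives ran from -0.73 to 0.52. Limma, edgeR and DESeq2 called 0 of them, and 1 was lower at an unadjusted limma p under 0.05.

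TAF2 and DEPTOR act within complexes, and their partners were taken from these. The log2 differences of the 11 tested subunits of TFIID ran from -0.35 (TAF6) to 0.35 (TAF8), with a median of -0.11. Those of the 8 genes of the mTOR complexes ran from -0.39 (PRR5) to 0.38 (RICTOR), with a median of -0.14. In both lists limma, edgeR and DESeq2 called 0 genes, and 0 had an unadjusted limma p under 0.05.

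**Figure D4:**
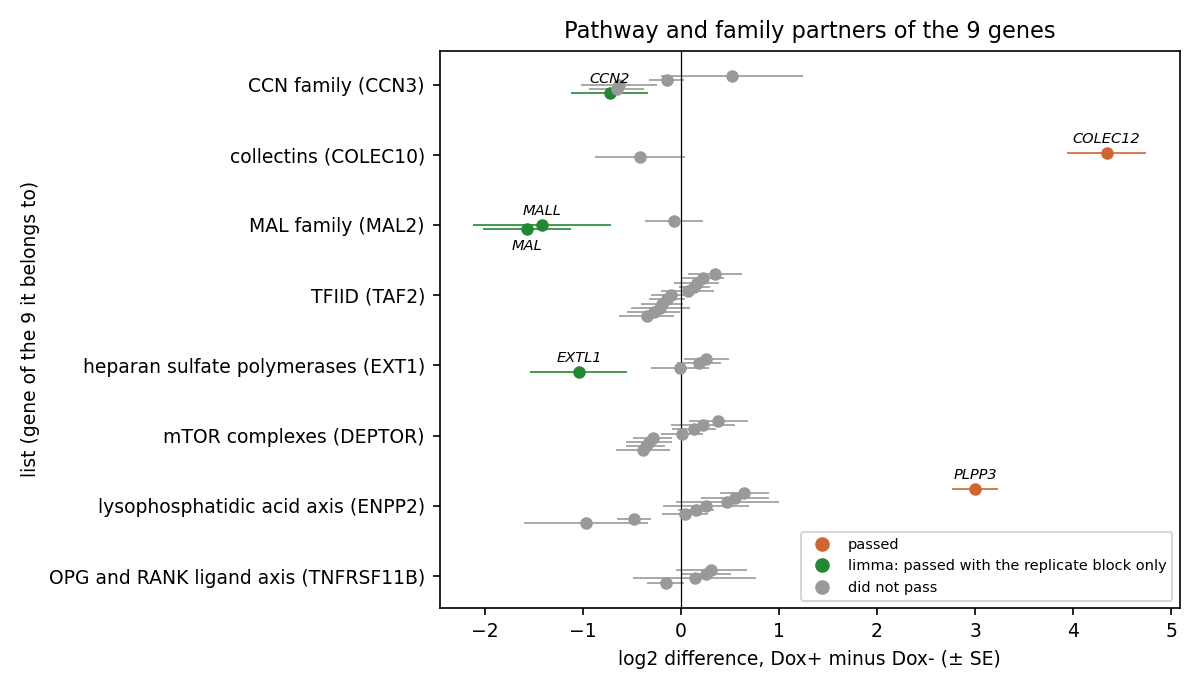
Log2 difference, Dox+ minus Dox- (± SE from limma), of each tested gene in the lists of pathway and family partners; the gene of the set a list belongs to is in brackets. PLPP3 (3.00) and COLEC12 (4.34) passed, and MAL, MALL, EXTL1 and CCN2, all below 0, passed in limma with the replicate block and not without it; MAL also passed in DESeq2, without a block.

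By the root mean square difference between log2 profiles over the 6 libraries, each centred on its own mean, the genes most like CCN3 were RSPO3 at 0.18, TNFAIP6 at 0.23 and BMP3 at 0.33. BMP3 had 0 reads in each Dox- library, so its distance depends on the pseudocount. RSPO3, an amplifier of Wnt signals, had 54.0, 68.0 and 99.1 normalized counts without doxycycline and 8894, 10095 and 10197 with it, so it shared with CCN3 both the size of the difference and the even level among Dox+ libraries. For MAL2 the nearest profiles were those of FILIP1 (0.54), an identifier with the symbol NRG1 (0.62) and SPINK6 (0.65), which had at most 1 read over the Dox- libraries. The symbol NRG1 is carried by 2 identifiers, and the values are those of ENSBTAG00000054057. For TNFRSF11B they were an identifier with the symbol RIMS2 (0.35), GRP (0.40) and NPR3 (0.43). The symbol RIMS2 is carried by 2 identifiers, and this one is ENSBTAG00000003827. The RIMS2 called between the rows is the other, ENSBTAG00000054448. Between CCN3 and MAL2 the distance was 1.13, between CCN3 and TNFRSF11B 1.05 and between MAL2 and TNFRSF11B 2.08. The genes named above were picked for the smallest distances, so nothing is read from these being larger. These distances describe 6 libraries in which the group difference makes up most of every profile.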

How the data were processed

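The authors deposited normalized counts per gene (signal: reads of a library divided by 1 size factor) and, in their comparison table, a mean signal, a log2 fold change, its standard error (a score here) and p-values. Per the submitters' processing notes, which give no order or role, the tools were STAR 2.5.2b, DESeq2, Salmon, FastQC 0.11.3 and MultiQC 1.2, and bosTau9 and ARS-UCD1.2 were the builds. Whole reads were recovered from the steps of the values: 100% of nonzero values were whole to within 0.01 read.

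Since the unit is not a raw count, limma 3.58.1 under R 4.3.3 (trend, two-sided) gave the main test, run on log2(normalized count + 1) with group as the only term, over the 13180 genes whose mean reached 10, adjusted by Benjamini-Hochberg at a threshold of 0.05. It called 332 genes higher and 47 lower. On the recovered reads edgeR 4.0.16 called 304 and 39 and DESeq2 1.42.0 called 542 and 159. Simulated counts without a replicate effect were used to try limma, with and without the replicate block, edgeR and DESeq2. The p-values rest on 3 libraries a group, from 3 knees per the labels.

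Same-numbered libraries were taken as paired in the blocked fit and in the differences within a number. The main limma fit, edgeR and DESeq2 did not use the pairing. Deviations of same-numbered libraries from the group means correlated over genes at 0.65, 0.44 and 0.21 for numbers 1, 2 and 3. Between libraries of different numbers the correlations ran from -0.59 to 0.18. Deviations within a group cancel out, so negative values here follow from positive ones and are no separate evidence of pairing. The 0.18, between Dox- 3 and Dox+ 2, was close to the 0.21 of number 3, where the pairing is weakest. The replicate block is given where it changes a call or moves a count by over 1.5 times. Other alternatives were pseudocounts, filters, TMM scaling and leaving out each library.

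The 9 genes, the lists and the naming rule (the 9, the protein-coding genes between and up to 10 on each side of the rows, at most 3 of each list by smallest p, and 3 most like CCN3, MAL2 and TNFRSF11B with a mean of at least 50) were chosen with earlier results of these data known. Written for a single row, the rule was applied to each of the 2 rows, and of the 133 genes between the rows the called ones are named. Exceptions to naming by smallest p are given with the lists. Beyond DEPTOR 6 genes remained. RefSeq entries of chromosome 14 were matched by Entrez identifier or symbol for 400 of 438 protein-coding genes.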

Additional observations from a re-analysis of the deposited data

How the results depend on the processing

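The log2 differences of CCN3, MAL2, TNFRSF11B, EXT1 and TAF2 kept their sign under each of the 14 alternatives run, from 6.76 to 6.98 for CCN3, 6.79 to 10.33 for MAL2, 4.65 to 5.21 for TNFRSF11B, 1.08 to 1.44 for EXT1 and 0.23 to 0.67 for TAF2. ENPP2 ran from -0.12 to 0.40 and DEPTOR from -0.31 to 0.47, each across 0. Over all genes, the counts of 332 higher and 47 lower became 542 and 159 in DESeq2 and 640 and 218 with the replicate block, and 138 to 364 higher and 9 to 72 lower when 1 library was left out. Without Dox+ 3 they were lowest, at 138 and 9, and without Dox+ 1 they were 209 and 21. Dropping Dox- 2 gave 18 lower genes, dropping Dox- 3 gave 22 and dropping Dox- 1 gave 72. The replicate block changed the calls of SNTB1, EXTL1, MAL, MALL and CCN2, as given above, and no other limma call among the tested neighbours on each side of the rows and the partners, and it moved the counts of higher genes between the rows and over chromosome 14 as given above. Depth limits COLEC10, SAMD12 and DEPTOR, with 4, 5 and 47 reads over the Dox- libraries, and the Dox- level of MAL2.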
